A study of Homo sapiens with 10 samples.

Results

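Mitochondrial ribosomal protein genes were taken as every gene whose symbol in the authors' deposited knockout-against-WT table is MRPL or MRPS followed by a number and, at most, a letter from A to C. The rule found 78 of the 32152 genes in the count table, and it used no measured value. PolyA RNA had been sequenced from WAe009-A cells, a human embryonic stem cell line also known as H9. There were 5 libraries of cells edited in KCNH2, the gene of the hERG potassium channel, and 5 of isogenic wild-type (WT) cells, all grown on Matrigel in the pluripotent state. The labels call the edited cells KCNH2-/- and knockout in one field and knockdown in another, and the libraries are called knockout here. WT cells grew in TeSR-E8 and knockout cells in mTeSR Plus, so genotype and medium cannot be told apart in any comparison. The position of the edit and the number of clones are not given, and nothing says that the 5 libraries of a group came from separate cultures. The p-values therefore measure only the spread between these libraries, which may be technical.

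The mitochondrial ribosome, or mitoribosome, is the machine that translates the messenger RNAs encoded by mitochondrial DNA, all of which code for subunits of oxidative phosphorylation. Its ribosomal RNAs are made inside the organelle, but its proteins are encoded in the nucleus, translated in the cytosol and imported. The small subunit reads the messenger RNA, and the large subunit forms the peptide bond and holds the exit tunnel, which feeds nascent chains to the inner membrane. Many of these proteins have counterparts in bacterial ribosomes, and the others were added in the mitochondrial lineage. Human pluripotent stem cells rely strongly on glycolysis while retaining mitochondria that respire.

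Library totals ran from 29788732 to 40587206 counts in knockout and from 28615751 to 47319933 in WT, and each member had at least 338 counts in every library. On the first principal component, which held 44.8% of the variance, all knockout libraries lay on the other side from all WT libraries. On the second, which held 28.3%, knockout replicate 3, WT replicate 3 and WT replicate 2 had the 3 lowest scores (-59.1, -32.2 and -10.1), and results that rest on them are given with and without them. KCNH2 itself was 12.2 ± 1.001 CPM (counts scaled to a library of 1000000) in knockout and 15.5 ± 0.754 in WT (SD, n = 5 each), a log2 fold change of -0.35 (knockout over WT, as throughout) with an adjusted p of 0.000648 in edgeR's quasi-likelihood test. A transcript level does not check loss of the protein. All 12 markers of primed pluripotency averaged at least 10 CPM, summing to 10099 to 10504 CPM in knockout and 9081 to 9437 in WT, with 7 higher, 0 lower. PAX6, SOX1, EOMES, GATA6, GATA4, CDX2, TFAP2A, COL3A1 and PTPRC, markers of other lineages, stayed under 0.1 CPM on average. Some other genes of those lists were expressed, but not every listed gene was found in the count table or passed the filter for testing. The sums in knockout and WT were 395 to 452 and 409 to 427 CPM for neural markers (3 tested, 1 higher, 1 lower). For endothelial and blood markers they were 66.6 to 72.6 and 62.0 to 66.8 (2 tested, 1 higher, 1 lower). For mesoderm markers they were 1.39 to 1.86 and 1.36 to 1.87 (1 tested, 0 called). The sums were 0.357 to 0.696 and 2.43 to 5.21 CPM for endoderm markers (1 tested, 1 lower). They were 10.9 to 14.7 and 28.4 to 36.1 for trophoblast and amnion markers (2 tested, 2 lower), and 809 to 935 and 930 to 1005 for fibroblast markers (4 tested, 3 lower). Beside these calls and those of the pluripotency markers, 21.9% of all 19163 tested genes were called higher and 24.1% lower. The part of any marker list in the members' change was not tested. In bulk RNA, a change in the mix of cells and a change of RNA per cell cannot be told apart.

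Nearly the whole gene family was somewhat more abundant in knockout cells. Of the 78 members, all of which were tested, 70 were higher in knockout, 1 was lower (MRPS25) and 7 did not pass an adjusted p of 0.05 in edgeR's quasi-likelihood test. Over all 19163 tested genes, 21.9% were called higher and 24.1% lower. The fitted log2 fold change was positive for 77 members, with a median of 0.24, whereas the median over all tested genes was 0.00 and 50.3% were positive. The rises were small: the median member differed 1.18-fold and the largest 1.38-fold, and no member passed a log2 fold change of 0.5, which 2252 tested genes did in either direction with an adjusted p under 0.05.

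The separation held library by library. The 78 genes summed to 4779, 4879, 5012, 4897 and 5055 CPM in knockout replicates 1 to 5 and to 4167, 4217, 4182, 4293 and 4042 CPM in WT replicates 1 to 5. The lowest knockout library was thus above the highest WT library, and the means were 4924 ± 110 and 4180 ± 91.3 CPM (SD, n = 5 each), a ratio of 1.18. As a share of all counts, the members took 0.481% in knockout and 0.428% in WT. In each knockout library between 74 and 77 of the 78 members were above their WT mean, and the median member stood 0.21 to 0.31 above it on the log2 scale. WT libraries varied too: 67 members were above the WT mean in WT replicate 4 and 12 in WT replicate 5. For 58 members every knockout library was above every WT library, and for MRPS25 every knockout library was below, whereas 16.3% and 17.7% of all tested genes showed such separations. Without knockout replicate 3 and WT replicates 2 and 3, 60 members were higher, 0 lower, and the median was 0.24, while 18.5% of the 19438 genes tested in that fit were higher and 18.5% lower.

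**Figure D1:**
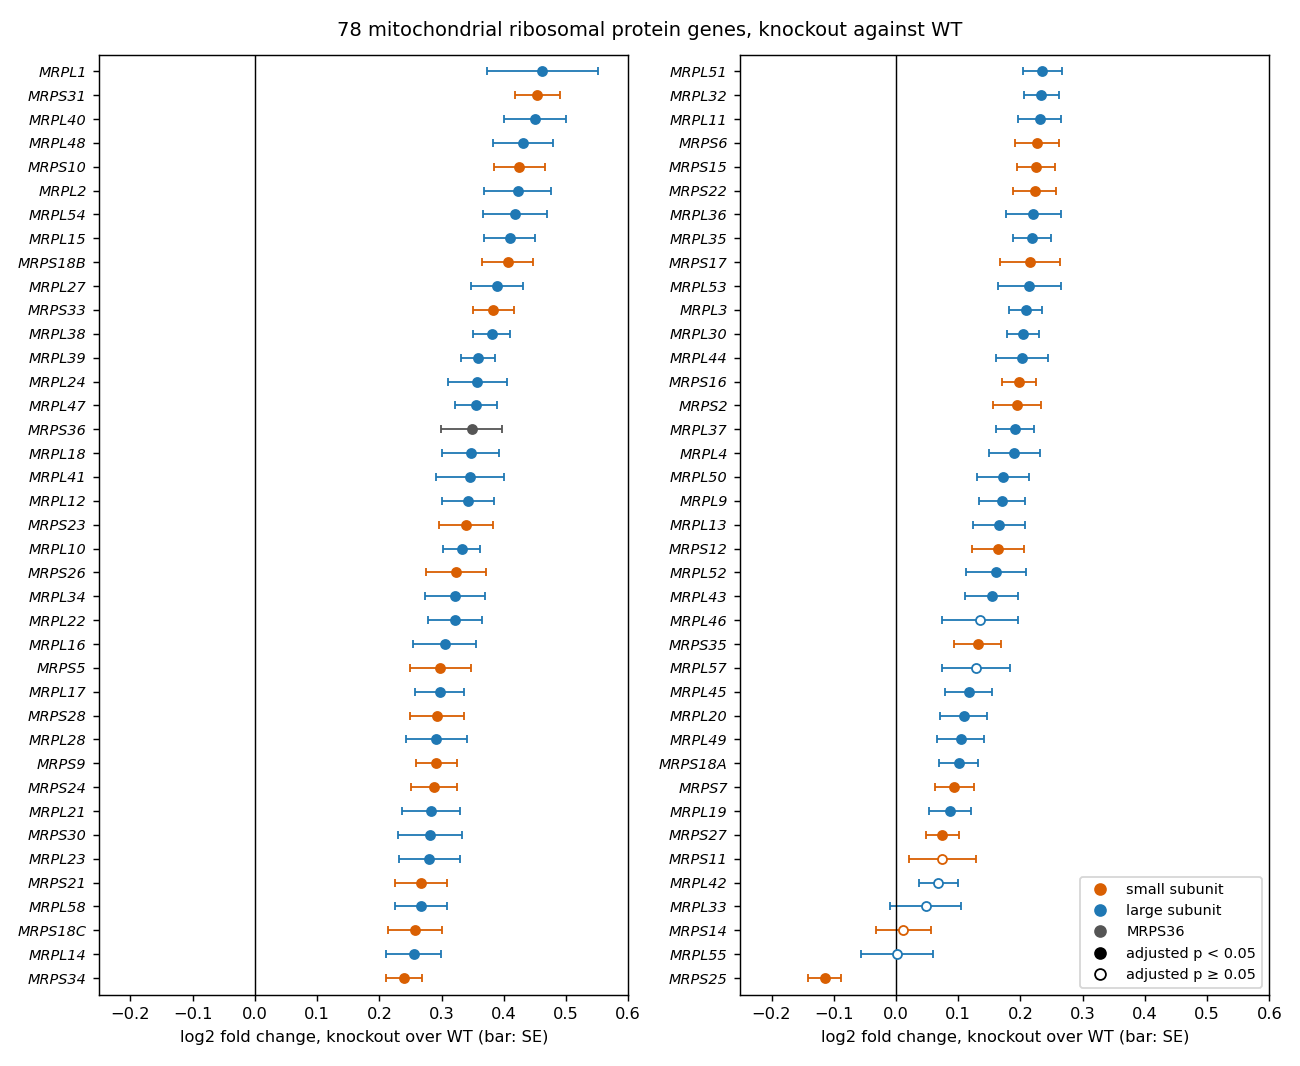
Log2 fold change of knockout over WT for each of the 78 genes (x axis), ordered by size, with bars for the standard error of the edgeR fit. Colours give the subunit and filled points an adjusted p under 0.05; 77 of 78 points lie right of 0, and MRPS25 lies left of it at -0.11.

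The small subunit, which carries the decoding site, had 26 members, of which 23 were higher and 1 lower, with a median log2 fold change of 0.23. MRPS31, a small-subunit protein without a bacterial counterpart (chromosome 13, 40729135 to 40771173, minus strand, GRCh38), rose most among them. Its level was 34.6, 35.2, 34.6, 37.1 and 37.9 CPM in the knockout libraries and 26.3, 25.4, 26.5, 27.0 and 25.7 CPM in the WT libraries. The groups lay well apart, and the log2 fold change was 0.45 (SE 0.036, adjusted p = 2.23e-06, edgeR). MRPS10, the counterpart of bacterial protein S10 (chromosome 6, 42206801 to 42217865, minus strand), measured 52.1, 49.7, 52.3, 54.9 and 54.5 CPM in knockout and 41.5, 37.1, 40.9, 39.3 and 37.4 CPM in WT. It rose by 0.43 (SE 0.041, adjusted p = 9.52e-06), again without overlap. MRPS23, a mitochondria-specific protein, was 66.8 ± 1.76 CPM in knockout and 52.8 ± 3.55 in WT (SD, n = 5 each), a log2 fold change of 0.34.

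The MRPS18 paralogues are all related to bacterial S18 but occupy different places in the ribosome. MRPS18C takes the S18 position in the small subunit, MRPS18B sits elsewhere in the small subunit, and MRPS18A is part of the large subunit despite its name. MRPS18B was 50.7, 54.8, 59.1, 56.8 and 57.9 CPM in the knockout libraries and 41.7, 43.2, 43.0, 42.0 and 40.8 CPM in the WT libraries. Its groups did not overlap, and it rose by 0.41 on the log2 scale (SE 0.041, adjusted p = 1.29e-05, edgeR). MRPS18C rose by 0.26 (SE 0.043), from 35.4 ± 2.18 to 42.3 ± 1.30 CPM, and was 0.11 (adjusted p = 0.0529) after correction for transcript length and GC content. MRPS18A rose least, by 0.10 (SE 0.032, adjusted p = 0.0223), with 43.4 to 46.8 CPM in knockout and 40.8 to 43.4 in WT. The MRPS18A call ended without WT replicate 5 (adjusted p = 0.0565), without both replicate 3 libraries (0.0563), without the 3 libraries named above (0.112), with the replicate number as a block (0.0519) and under both length corrections. Whether the paralogues differ from each other in their change was not tested.

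The large subunit, which forms the peptide bond, had 51 members, of which 46 were higher and 0 lower, with a median of 0.24. MRPL1, the counterpart of the bacterial L1 protein that forms a mobile stalk beside the tRNA exit site, had the largest fold change of any member (chromosome 4, 77862520 to 77952790, plus strand). It measured 21.9, 18.4, 16.1, 15.9 and 18.7 CPM in knockout and 12.2, 12.8, 13.7, 14.8 and 12.5 CPM in WT. The groups came close but did not overlap, and MRPL1 had a wider spread than the members next to it in size, with a log2 fold change of 0.46 (SE 0.089, adjusted p = 0.00123, edgeR). MRPL40, a mitochondria-specific protein of the large subunit (chromosome 22, 19431902 to 19436075, plus strand), measured 14.5, 15.1, 16.01, 15.2 and 17.1 CPM in knockout and 11.4, 11.0, 11.4, 11.8 and 11.5 CPM in WT. Its WT libraries were almost level, and it rose by 0.45 (SE 0.050).

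MRPL48, another mitochondria-specific member, measured 21.7, 22.3, 23.6, 22.5 and 23.4 CPM in knockout and 16.4, 17.5, 17.5, 17.7 and 15.1 CPM in WT, a rise of 0.43 (SE 0.048). MRPL2, counterpart of the bacterial protein L2 near the peptidyl transferase centre, measured 57.4, 60.8, 70.0, 67.3 and 69.0 CPM in knockout and 51.1, 46.5, 47.8, 48.6 and 48.3 CPM in WT, a rise of 0.42 (SE 0.054). Neither gene had a knockout library within the WT range. MRPL54 rose by 0.42 (SE 0.051), from 19.4 ± 1.24 to 25.9 ± 1.34 CPM (SD, n = 5 each). MRPL15, counterpart of bacterial L15, rose by 0.41 (SE 0.041), with 50.8 to 57.3 CPM in knockout and 38.5 to 42.9 in WT. MRPL27, counterpart of bacterial L27 at the peptidyl transferase centre, rose by 0.39 (SE 0.042), with 43.4 to 48.6 CPM in knockout and 33.2 to 37.0 in WT.

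MRPL39, a mitochondria-specific large-subunit protein (chromosome 21, 25585656 to 25607517, minus strand), had the smallest p of all members, with closely grouped replicates. It measured 49.4, 50.1, 50.4, 52.2 and 52.2 CPM in knockout and 40.1, 39.1, 39.2, 39.98 and 40.1 CPM in WT. The rise was 0.36 (SE 0.027, adjusted p = 1.64e-06, edgeR), or 1.28-fold. MRPS36, which carries an MRPS name but is a subunit of the 2-oxoglutarate dehydrogenase complex and was counted with neither ribosomal subunit, rose by 0.35 (SE 0.049), with 19.9 to 23.1 CPM in knockout and 15.7 to 17.4 in WT.

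**Figure D2:**
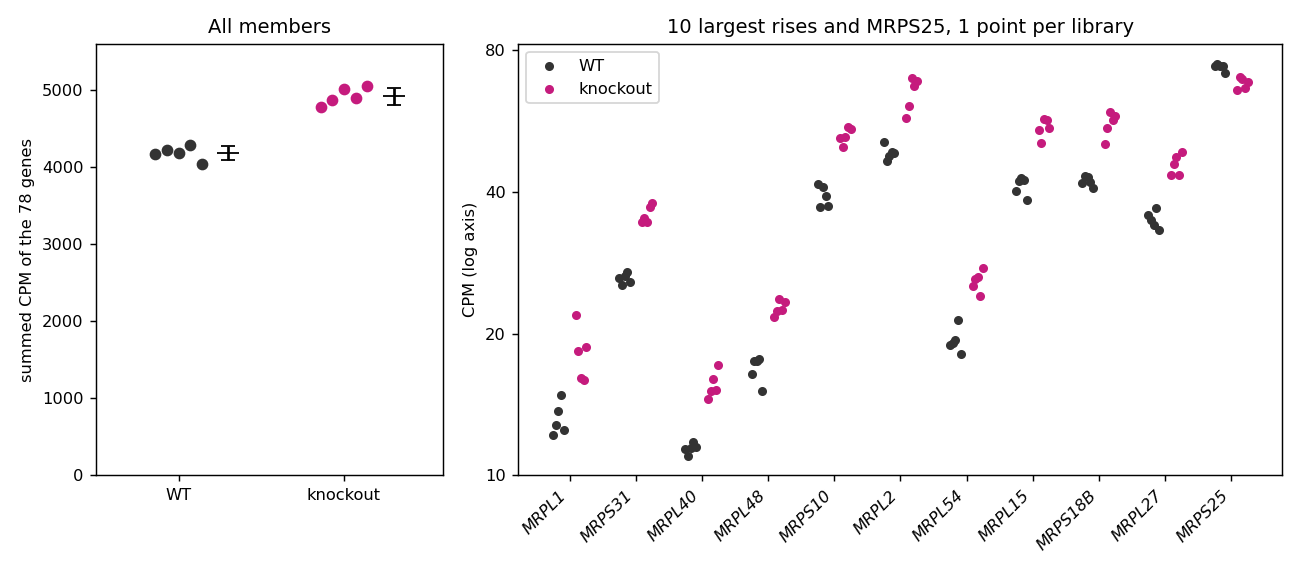
Left, summed CPM of the 78 genes in each library (y axis from 0), with mean and SD beside the points; the knockout libraries lie at 4779 to 5055 and the WT libraries at 4042 to 4293. Right, CPM on a log axis for the 10 largest rises and MRPS25, with 1 point per library; the groups do not overlap in any of the 11 genes, and MRPS25 alone is lower in knockout.

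Both subunits rose by nearly the same factor. Summed CPM of the large-subunit genes divided by that of the small-subunit genes was 1.74 ± 0.014 in knockout and 1.72 ± 0.0058 in WT (SD, n = 5 each), and the sums were 1.18-fold and 1.17-fold higher in knockout. The ratio was slightly higher in every knockout library (1.726 to 1.760) than in any WT library (1.708 to 1.724). Of the 46 members with a counterpart in bacterial ribosomes, 42 were higher and 0 lower, with a median of 0.26 (28 and 2, median 0.13, after correction for transcript length and GC content). Of the 31 ribosomal proteins counted as mitochondria-specific, which include MRPS18A and MRPS18B because neither takes the place of S18, 27 were higher and 1 lower, with a median of 0.22 (18 and 1, median 0.11, after that correction).

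MRPS25, a mitochondria-specific protein of the small subunit (chromosome 3, 15042460 to 15065335, minus strand), was the exception. It measured 65.9, 70.3, 69.4, 66.6 and 68.4 CPM in knockout and 74.0, 74.9, 74.1, 74.2 and 71.4 CPM in WT. The groups did not overlap, and the log2 fold change was -0.11 (SE 0.026, adjusted p = 0.00394, edgeR). The call ended without knockout replicate 3 and WT replicates 2 and 3 (adjusted p = 0.0530) and under a correction for transcript length and GC content (adjusted p = 0.450). Exons of MRPS25 share 1197 bases with NR2C2, a nuclear receptor gene on the opposite strand, whose log2 fold change was -0.16 (adjusted p = 0.00304). The strand setting of the counts is not given, so reads of the 2 genes cannot be told apart there.

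The 7 members that passed in neither direction were MRPL55, MRPS14, MRPL33, MRPL42, MRPS11, MRPL57 and MRPL46. Of these, MRPL55, MRPL33, MRPS14 and MRPS11 are counterparts of bacterial proteins L31, L33, S14 and S11, and the other genes encode mitochondria-specific proteins of the large subunit. MRPL55 measured 30.2, 30.4, 27.6, 26.1 and 30.5 CPM in knockout and 29.8, 28.6, 29.5, 30.9 and 25.7 CPM in WT, and MRPL33 measured 21.9, 21.7, 18.8, 20.2 and 20.2 CPM in knockout and 21.5, 20.2, 20.3, 19.5 and 17.8 CPM in WT. The groups overlapped across almost their whole range in both genes, with log2 fold changes of 0.00 (SE 0.058) and 0.05 (SE 0.057). MRPL42 was 110 ± 4.85 CPM in knockout and 105 ± 1.12 in WT, and its log2 fold change of 0.07 (SE 0.031) gave an adjusted p of 0.0902, which fell to 0.0327 without knockout replicate 1 and to 0.0331 without knockout replicate 2. MRPL57 and MRPL46 had log2 fold changes of 0.13 (SE 0.055 and 0.061), larger than some called members but with more spread between libraries. An unadjusted p under 0.05 was reached by 74 of the 78 members.

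Members differed far more in level than in change. Per kilobase of transcript, mean CPM over all 10 libraries ran from 6.63 to 154, a 23.3-fold range, with a median of 39.02. MRPS34, a mitochondria-specific small-subunit protein, was highest at 154 CPM per kilobase. MRPL51 followed at 124, MRPL12, the counterpart of the bacterial stalk protein that recruits translation factors, at 121, and MRPL42 at 117. The lowest levels were 6.63 CPM per kilobase for MRPS11, 9.74 for MRPL40, 10.5 for MRPL1 and 10.6 for MRPS23. These ranks rest on the length of 1 transcript per gene, which for MRPS23 is 5621 bases. For MRPL42 it is 920 bases, whereas all its exons joined have 16393, a length by which it would not rank among the highest. Before division by length, mean CPM ran from 13.5 to 172, with a median of 51.3. Of the highest, MRPS34, MRPL51 and MRPL12 rose by 0.24, 0.24 and 0.34 on the log2 scale, and of the lowest, MRPL40, MRPL1 and MRPS23 rose, so both ends of the range held genes called higher. Across the 78 genes, which share the same libraries, Spearman's rho between mean CPM in WT, not divided by length, and log2 fold change was -0.21. The WT level also enters the fold change, so a negative rho can arise in part from that. MRPS34 measured 168, 172, 173, 166 and 177 CPM in knockout and 143, 150, 144, 149 and 139 CPM in WT, without overlap. After length and GC correction its log2 fold change was 0.07 by transcript (adjusted p = 0.0181) and 0.05 by joined exons (adjusted p = 0.185), where the call ended. MRPL12 measured 130, 139, 145, 132 and 147 CPM in knockout and 108, 112, 111, 113 and 102 CPM in WT, likewise without overlap.

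Transcript length moved with the fold changes over the whole data set, and the members are short. The median transcript was 1274 bases for members and 2441 bases for tested genes. Among the 11347 protein-coding genes with 5 CPM or more, Spearman's rho between transcript length and log2 fold change was -0.42, and within the 78 members it was -0.09. Both are descriptions over genes of the same libraries. After each library was corrected for transcript length and GC content, 47 members were higher and 3 lower (MRPL33, MRPL42 and MRPL55), with a median of 0.11, while 20.6% of all tested genes were higher and 24.3% lower. With the length of all exons joined in place of 1 transcript, 53 were higher and 4 lower (MRPL33, MRPL55, MRPS14 and MRPS25), with a median of 0.14, beside 21.2% and 24.1% of all tested genes. Fold changes stayed positive for 66 and 71 members, and the medians over all tested genes were -0.01 in both. The part of length and GC content in the members' change was not tested beyond these corrections.

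Of the 70 members called higher, 47 and 51 were also higher under the corrections, 41 under both, and 0 were lower under either. The 10 largest rises were among those 41: MRPL1 went to 0.30 and 0.27, MRPS31 to 0.29 and 0.28, and MRPL2 to 0.35 and 0.33, in the order transcript and joined exons. MRPS23, whose transcript of 5621 bases is the longest of the family, went from 0.34 to 0.43 and 0.37. MRPL33, which has the shortest transcript at 518 bases, went to -0.26 (adjusted p = 0.00331) and -0.16 (adjusted p = 0.0372), and MRPL55 to -0.22 (adjusted p = 0.00320) and -0.14 (adjusted p = 0.0329). MRPL42 depended on which length was used: it was -0.18 (adjusted p = 0.000871) with a transcript of 920 bases and 0.19 (adjusted p = 0.000223) with all exons joined. In all, 11 members turned from positive to negative by transcript length, 6 of them called higher before (MRPL13, MRPL19, MRPL20, MRPL36, MRPL43 and MRPS18A), and 6 by joined exons, 3 of them called higher before (MRPL45, MRPS18A and MRPS35). None of these called members passed as lower; MRPL36 went from 0.22 to -0.01 by transcript and MRPS18A to -0.04 and -0.07. Among the 13 members with a transcript of at least 2000 bases, 9 were higher and 1 lower before correction (median 0.17), 8 and 0 after the transcript correction, and 7 and 2 with exons joined. Over 21 fits, which also varied scaling, filter, tool, replicate block and the libraries used, 39 members were higher in every one. The shares of all tested genes higher under both corrections or in every fit are not given, so 41 and 39 describe the members only.

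**Figure D3:**
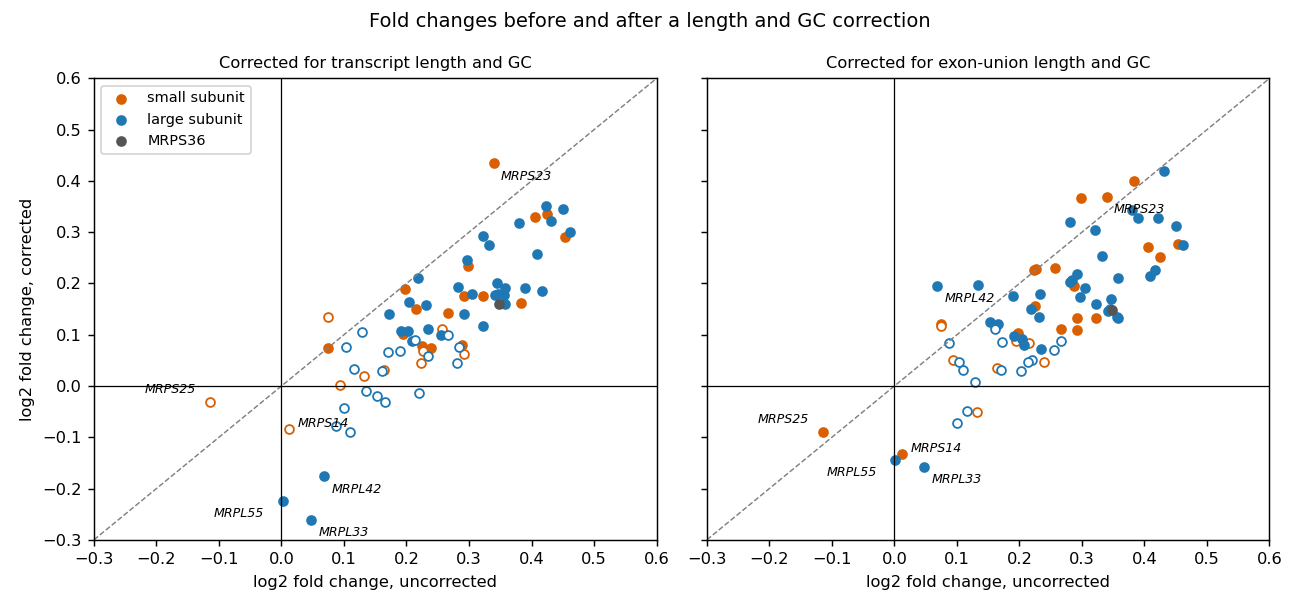
Log2 fold change of each of the 78 genes before (x axis) and after (y axis) correction of every library for length and GC content, by transcript length on the left and joined exons on the right. Filled points pass an adjusted p of 0.05 after correction, and the dashed line marks no change; most points lie below it, and 66 and 71 of 78 stay above 0.

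Exons of 33 members overlap those of another tested gene. The 45 members without such overlap had 41 higher and 0 lower with a median of 0.29, and the 33 with overlap had 29 higher and 1 lower with a median of 0.20. After correction for transcript length and GC content these were 33 and 2 (median 0.16) and 14 and 1 (median 0.07), and with joined exons 33 and 1 (0.16) and 20 and 3 (0.10). Partners moved in both directions. SLC5A3, an inositol transporter gene that shares 273 exonic bases with MRPS6, had a log2 fold change of -0.79 where MRPS6 had 0.23. MRPL43 rose by 0.15 and SEMA4G, sharing 1170 bases, fell by 0.40 on the log2 scale, while MRPL49 rose by 0.10 and FAU, a cytosolic ribosomal protein gene sharing 282 bases, rose by 0.40. MRPS14, not called, shares 351 bases with CACYBP, which rose by 0.24. These genes were chosen for mention after their values were seen, and reads from shared bases may be counted for either gene. Of 16 pseudogenes of members in the table, 5 passed the filter, and MRPS31P4 rose from 0.578 ± 0.138 to 0.954 ± 0.103 CPM, while MRPS31 itself averaged 26.2 and 35.9 CPM.

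Promoters of many nuclear genes for mitochondrial proteins are known to bind NRF1, the ETS factor GABP and YY1, so the windows from 250 bases before to 50 bases after each gene's start (RefSeq, GRCh38.p14) were searched on both strands. A window was found for 70 of the 78 members, and none for MRPL10, MRPL13, MRPL15, MRPL2, MRPL21, MRPL23, MRPL35 and MRPS28. The NRF1 letters, GCGCA and GCGC with any 1 base between, were in 8 of the 70 (11.4%), against 6.29% of 27305 windows of all genes and 10.8% of 11762 windows of tested protein-coding genes. The letters CCGGAAGT, for ETS factors, were in 11 (15.7%), against 4.44% and 8.05%. The letters AAGATGGCG, for YY1, were in 13 (18.6%), against 1.85% and 3.596%. At least 1 of the 3 was in 29 members, whose median log2 fold change was 0.24, beside 0.23 for the 41 without. A match describes the sequence and does not show binding. The stretches below, 30 bases each on the gene's strand, show matches of each kind with the motif in capitals. They come from the members with the largest log2 fold changes among those with each motif, so that these members rose follows from the choice. Shown are the NRF1 letters in MRPS33 (chr7:141015088-141015117, minus strand) and MRPL17 (chr11:6683402-6683431, minus), the ETS letters in MRPL27 (chr17:50373218-50373247, minus) and, as reverse complement, MRPL38 (chr17:75905075-75905104, minus), and the YY1 letters in MRPS10 (chr6:42217833-42217862, minus) and MRPS18B (chr6:30617853-30617882, plus).
MRPS33: tagccttactGCGCAGGCGCcaggtacacc
MRPL17: aggctctgatGCGCATGCGCaaacacgttc
MRPL27: ccacgcagggcCCGGAAGTagatctcctga
MRPL38: gtccaacgggcACTTCCGGagccgggcgtc
MRPS10: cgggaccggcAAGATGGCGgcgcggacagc
MRPS18B: ggcgtacgtcAAGATGGCGgcgtctgtatt

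In MRPS10 and MRPS18B the YY1 letters begin 10 and 24 bases after the RefSeq start. In MRPL27, MRPL17, MRPS33 and MRPL38 the match shown begins 52, 81, 155 and 209 bases before it. By the GENCODE 29 annotation MRPS33 and MRPL38 begin further upstream, and the matches shown lie inside those genes. MRPS33, a mitochondria-specific small-subunit protein, rose by 0.38 (44.7 to 50.2 CPM in knockout and 35.7 to 36.8 in WT), and MRPL38, a mitochondria-specific large-subunit protein, also by 0.38 (69.1 to 73.7 and 52.0 to 56.1 CPM). MRPL17, counterpart of bacterial L17, rose by 0.30 (56.2 to 63.7 and 45.3 to 49.3 CPM). Of the factors themselves, 1 gene passed the test. NRF1 had a log2 fold change of 0.11 (adjusted p = 0.0517), YY1 of 0.02 (adjusted p = 0.517) and the GABP subunits GABPA and GABPB1 of 0.00 (adjusted p = 0.980) and 0.20 (adjusted p = 0.0238), in edgeR's quasi-likelihood test. Under the transcript length correction NRF1 (0.16, adjusted p = 0.0116) and YY1 (0.17, adjusted p = 0.000105) were also higher. These 4 genes were chosen for mention after their values were seen.

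Genes that work with the mitoribosome rose in part, by lists chosen for this comparison. Over all tested genes, 21.9% were called higher and 24.1% lower. All 5 mitoribosomal proteins without an MRP name were higher (median 0.27): GADD45GIP1 rose from 83.2 ± 3.14 to 120 ± 9.42 CPM (log2 fold change 0.53), AURKAIP1 by 0.38, DAP3 by 0.27, CHCHD1 by 0.25 and PTCD3 by 0.10. Of 28 genes for mitoribosome assembly and ribosomal RNA modification, 17 were higher and 1 lower (median 0.16). Among them MRM1, an rRNA methyltransferase, rose by 0.55, ERAL1, a chaperone of the small-subunit rRNA, by 0.26 and NDUFAB1, the mitochondrial acyl carrier protein, by 0.25. TRMT61B, an RNA methyltransferase, was the 1 lower gene at -0.20, a call that ended when knockout replicate 3, 4 or 5 or WT replicate 2, 3 or 4 was left out. With the transcript correction 11 of the 28 were higher and 4 lower. Of 17 translation factors, 12 were higher and 0 lower (median 0.16), including SLIRP, which stabilises mitochondrial mRNAs, at 0.43, MTRES1, a ribosome rescue factor, at 0.39 and the initiation factor MTIF3 at 0.32.

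Lists further from the ribosome had lower medians. Beside the 21.9% higher and 24.1% lower over all tested genes, the counts of the biogenesis regulators were near the general share. Of 20 mitochondrial aminoacyl-tRNA synthetases, 8 were higher and 1 lower (median 0.06); SARS2, which shares exonic bases with MRPS12, rose by 0.34, YARS2 rose by 0.20 and VARS2 fell by 0.22. Of 17 genes for replication and transcription of mitochondrial DNA, 6 were higher and 1 lower (median 0.08), including the single-stranded DNA-binding protein SSBP1 at 0.31, the nuclease MGME1 at 0.21 and the tRNA-processing enzyme ELAC2 at 0.15. Of 12 transcriptional regulators of mitochondrial biogenesis, 3 were higher and 2 lower (median 0.02), with ESRRA at 0.33, PPARGC1A at 0.40, GABPB1 at 0.20, MYCN at -0.36 and CREB1 at -0.11. In that last list 1 gene was higher when knockout replicate 3, WT replicate 1 or WT replicate 3 was left out, and 6 and 5 were higher under the transcript and joined-exon corrections. The 1 lower call among the mitochondrial DNA genes, POLG2 (an accessory subunit of the DNA polymerase) at -0.17, ended without knockout replicate 2 or 5 or WT replicate 1, 4 or 5. Among the genes named from these lists, CHCHD1 and CREB1 lost their calls under both length corrections, and NDUFAB1, MTIF3, MTRES1 and SSBP1 under that for transcript length. The differences between lists were not tested.

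**Figure D4:**
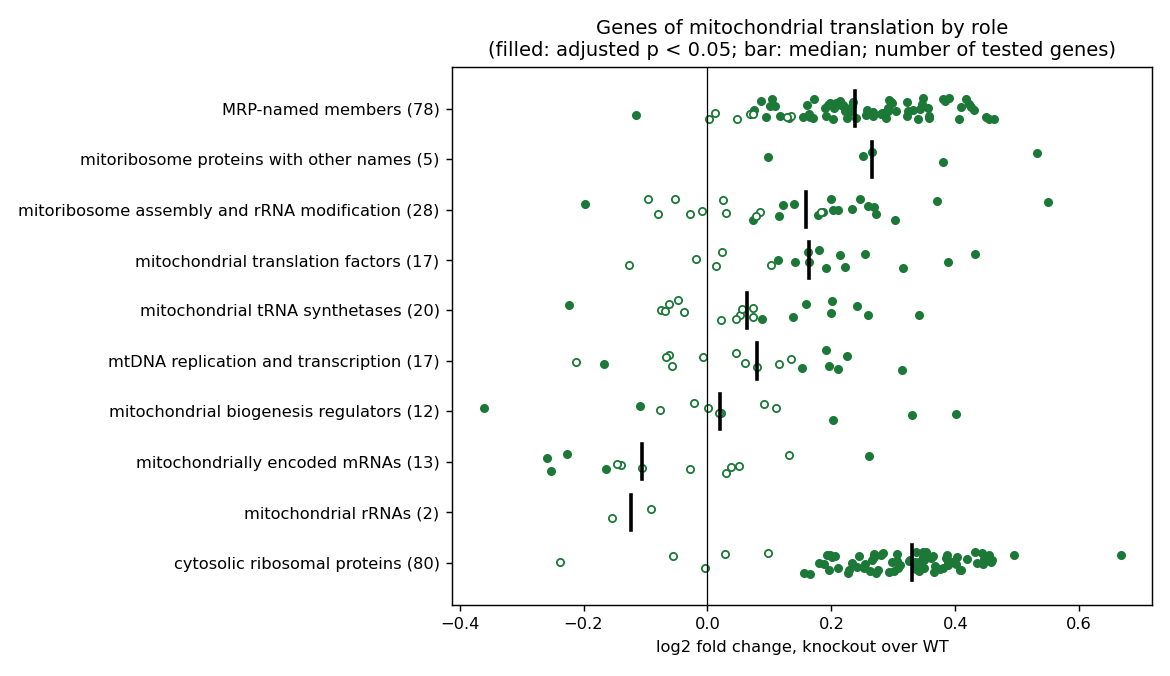
Log2 fold change of knockout over WT for each tested gene (points), by list, with the number of genes in parentheses and a bar at the median. Filled points pass an adjusted p of 0.05; the 78 members and the 80 cytosolic ribosomal protein genes lie mostly right of 0, and the mitochondrially encoded mRNAs have a median of -0.11.

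The RNAs that the mitoribosome contains or translates did not share the rise. Of the 13 mitochondrially encoded mRNAs, 1 was higher and 4 lower, with a median of -0.11, beside 21.9% higher and 24.1% lower over all tested genes. MT-ND1 was 1433 ± 72.2 CPM in knockout and 1716 ± 119 in WT (log2 fold change -0.26), and MT-ND2 1840 ± 62.0 and 2190 ± 198 CPM (-0.25). MT-CYB and MT-CO1 were the other lower genes, at -0.23 and -0.16, and POLG2, PPARGC1A and these mRNAs were named after their values were seen. MT-ND6, the mRNA on the other strand of the mitochondrial genome, was 364 ± 22.9 and 304 ± 23.6 CPM (0.26), a call lost under both length corrections, which left 0 of the 13 higher and 9 lower. The mitochondrial ribosomal RNAs MT-RNR1 and MT-RNR2, which polyA selection captures only in part, had log2 fold changes of -0.15 (adjusted p = 0.108) and -0.09 (adjusted p = 0.397) in edgeR's quasi-likelihood test, and both were lower under the corrections. The cytosolic ribosomal protein genes, short transcripts as well, had 75 of 80 higher and 0 lower with a median of 0.33. Of those with the smallest p, RPL34 rose by 0.37, RPL23 by 0.43 and RPL32 by 0.40. After correction for transcript length and GC content 56 of them were higher and 5 lower (median 0.13), and with joined exons 71 and 3 (median 0.24).

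In the authors' deposited table, 70 members had a positive log2 fold change with an adjusted p under 0.05 and 1 a negative one. The share of all genes in that table passing the same threshold is not given here, so these counts stand without a background. The median log2 fold change of the members in the authors' deposited table was 0.25. That table also marks genes as called: 0 of the 78 members carry the mark, which 3.79% of its 32152 genes do.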

How the data were processed

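The authors deposited raw read counts per gene for 10 libraries, with no normalization; per the submitters' processing notes, hg38, DESeq2 and R 3.6.3 were used, while the counting strand, the annotation, the counter and the aligner are not stated in the labels or headers. The authors' deposited comparison table, with a mean normalised signal, a log2 fold change and its error, a score, a p-value and an adjusted p-value, was used for gene symbols and for the members' values quoted from it. Groups and replicate numbers came from the sample titles, and edgeR's quasi-likelihood test compared all 5 knockout with all 5 WT libraries (edgeR 4.0.16, R 4.3.3, TMM scaling, filterByExpr, Benjamini-Hochberg adjustment over 19163 tested genes, threshold 0.05). CPM are counts scaled to a TMM-adjusted library of 1000000. Each member had at least 338 counts in every library. For some members, such as MRPL40 and MRPL39 in WT, counting error alone can be as large as the spread between libraries.

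Lengths, GC content, positions and exon overlaps came from GENCODE 29 (GRCh38), which gave a position for 96.9% of genes in the count table. Per library, natural splines with 5 degrees of freedom of log2 CPM (prior count 2) on log2 length and GC content entered edgeR as offsets. They used 1 transcript per gene (of median length among the best supported; this replaced the longest after lengths, but no corrected fold change, had been seen) or all exons joined. Only the length differed between these corrections, and GC content was that of the 1 transcript in both. Alternatives were DESeq2 1.42.0, its size factors in edgeR, other filters, a replicate block and fits without libraries. The statistics were tested on simulated data, with changes larger than that of any member and no length or GC effect. Changes as small as the members' and the removal of a length effect were thus not covered. The members and lists were chosen with earlier results of these data known. Genes were named by rule: the 10 largest rises and falls among called members of at least 5 CPM, the 4 highest and 4 lowest per kilobase, the MRPS18 paralogues, the smallest p, members whose call turned, and the 3 smallest p of each list; other genes named, such as MRPS36, DAP3, PTCD3, TRMT61B and MRPS31P4, were chosen after their values were seen. Promoter motifs were searched in Python 3.11.15 after the fold changes were known. Per degree of freedom, chi-square between libraries of a group was 3.59 to 26.2, so none was a duplicate.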

Additional observations from a re-analysis of the deposited data

Results flagged for a closer look

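Within the groups of 5 libraries, the named members, KCNH2 and the members' summed CPM were examined for a library set apart from the rest, by comparing the gap to its nearest neighbour with the group's range (limit 0.71, 50 groups; chance gives about 5% of groups). MRPS25 in WT replicate 5 was 71.4 CPM, below 74.0 to 74.9 in the other WT libraries (0.726 of the range), and without that library its log2 fold change was -0.13 (adjusted p = 0.00423, edgeR). MRPL51 in knockout replicate 5 was 173 CPM, above 162 to 164 in the other knockout libraries (0.812 of the range). WT replicate 5 had the lowest summed CPM of the members and knockout replicate 5 the highest.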

How the results depend on the processing

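The counts of members changed little with scaling, tool and filter: 70 higher and 1 lower with DESeq2, with its size factors in edgeR and with a filter of 1 CPM in 5 libraries, and 66 and 1 with no filter. Leaving out 1 library gave 64 to 70 higher, 1 lower and a median of 0.23 to 0.26 (small subunit 21 to 23, 1, and 0.22 to 0.26; large subunit 42 to 46, 0, and 0.23 to 0.26), with 3846 to 4537 of all genes higher and 4150 to 4517 lower. Without both replicate 3 libraries 63 were higher and 1 lower; without knockout 3, WT 2 and WT 3, 60 and 0 (small subunit 20 and 0).

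Length and GC correction moved the values most. By transcript length, members were 47 higher and 3 lower (median 0.111), small subunit 16 and 0 (0.107), large subunit 30 and 3 (0.111); by joined exons, members 53 and 4 (0.135), small 17 and 2 (0.127), large 35 and 2 (0.146). The replicate block with the transcript correction, chosen after seeing the data, gave 46 and 3 (0.111), small 16 and 0 (0.106) and large 29 and 3 (0.111). Among the members named by rule, values turned negative in these 3 fits, in the order transcript, joined exons and block, for MRPL33 (-0.262, -0.157, -0.260), MRPL55 (-0.224, -0.144, -0.224), MRPS14 (-0.0844, -0.133, -0.0842) and MRPS18A (-0.0420, -0.0726, -0.0421), and for MRPL42 by transcript and block only (-0.176 each). MRPS34 lost its call by joined exons (0.0463, adjusted p = 0.185, edgeR) and under the block with the transcript correction (0.0746, adjusted p = 0.0562), and MRPS18C by transcript (0.111, adjusted p = 0.0529). By transcript MRPL13 (-0.0319), MRPL19 (-0.0785), MRPL20 (-0.0889), MRPL36 (-0.0138), MRPL43 (-0.0191) and MRPL46 (-0.00970) also turned negative, and by joined exons MRPL45 (-0.0481) and MRPS35 (-0.0516). Near 0, MRPL55 was -0.00201 with the 1 CPM filter and -0.0362 to 0.0385 without 1 library, and MRPS14 -0.00635 to 0.0456 without 1 library. The cause was not tested.

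Higher and lower counts of the lists in the same order were: assembly 11 and 4, 15 and 2, 10 and 3; translation factors 8 and 1, 9 and 1, 6 and 0; tRNA synthetases lower 2, 3 and 2; mitochondrial DNA genes lower 3, 4 and 2; regulators 6 and 1, 5 and 1, 6 and 1; cytosolic ribosomal proteins lower 5, 3 and 5; mitochondrial mRNAs 0 and 9, 0 and 9, 0 and 10; mitochondrial rRNAs lower 2, 2 and 1. Other moves were assembly 0 lower under the block, without both replicate 3 libraries and without the 3 libraries; translation factors 1 lower with the 1 CPM filter; regulators 1 higher without both replicate 3 or the 3 libraries; and mitochondrial mRNAs 2 higher with DESeq2. Without 1 library the assembly list had 16 to 18 higher and 0 to 1 lower, translation factors 11 to 12 and 0 to 1, synthetases 7 to 9 and 1, mitochondrial DNA genes 6 to 8 and 0 to 1, regulators 1 to 4 and 2 to 3, and mitochondrial mRNAs 1 to 2 and 3 to 6.

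Nothing in the labels says that the replicate numbers pair the libraries. Deviations of same-numbered libraries correlated at 0.17, -0.16, 0.70, 0.20 and 0.18, and 2 of 10 libraries correlated best with their own number. Whether any numbers pair, such as replicate 3 at 0.70, cannot be decided from these values. The replicate block gave 66 members higher and 1 lower (large subunit 43, small 22) and 4258 and 4300 of all genes; MRPS18A was then not called (adjusted p = 0.0519, edgeR).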
